A study of Rattus norvegicus with 18 samples.

Results

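The genes described here encode the kidney's membrane transport proteins: solute carriers (symbols starting with Slc), potassium channels (Kcn), chloride channels (Clcn), the Na,K-ATPase (Atp1), calcium pumps (Atp2), the vacuolar proton pump (Atp6) and aquaporins (Aqp). They were chosen by symbol, from the array clones that carry 1 gene symbol, and Slc12a1, Slc12a3 and Aqp1 were left out by name. Earlier results of these data were known when the choice was made. Of 2304 clones on the array, 1489 had 1 symbol, and 55 of these were transport genes, each represented by 1 clone. Messenger RNA levels in whole kidney were compared between sham-operated rats and ARF rats, which had been left to recover for 35 days after 52 min of renal ischemia with reperfusion; ARF stands for the acute renal failure caused by that injury. In each of 6 pairs, A to F, 1 ARF rat was compared with 1 sham rat on 2 spotted cDNA arrays with the dyes exchanged, and 6 further arrays, R1 to R6, each compared 1 sham rat with another. The labels name no transgene, drug or diet for any group. Strain, sex and age of the rats, and whether the ischemia involved 1 or both kidneys, are not given in the sources used here.

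Transport along the nephron is divided between segments. Proximal tubule cells take back glucose, amino acids, peptides, bicarbonate and organic ions from the filtrate, the loop of Henle and distal tubule take back salt, and the collecting duct adjusts water, sodium and acid. The Na,K-ATPase on the basolateral side sets up the sodium gradient that drives most of these carriers, and in ischemia it is known to lose its place in the membrane. The proximal tubule burns fatty acids for much of its energy and is the segment most often injured by ischemia.

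Each value is a log ratio of ARF over sham, averaged over duplicate spots and over the 2 arrays of a pair, so that a dye effect cancels. The log base is not stated in the labels: a log ratio of 0.31, the largest mean size among the transport genes tested, would mean a change of 1.24-fold on a log2 scale, 1.36-fold on a natural log scale and 2.03-fold on a log10 scale. The labels do not settle the sign either. A value below 0 is read here as lower in ARF, from the assumption that ratios are channel 2 over channel 1 where sham was labelled with Cy3, and under the opposite convention every sign in the text would turn. Because RNA came from whole kidney, fewer cells of a type and less RNA per cell cannot be told apart.

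Of 4608 spots, 1586 to 2786 had a value on each array of ARF against sham, and 914 to 2232 on each array of sham against sham. Across spots of an array, duplicates correlated with r from 0.754 to 0.904 in the first set and from 0.60 to 0.853 in the second. The 2 arrays of a pair correlated with r from 0.196 to 0.58 across clones. The tubule genes Umod, Lrp2 and Cubn, markers of the thick ascending limb and the proximal tubule, had values on all 12 ARF-sham arrays. A clone was tested when both arrays of at least 4 pairs had a value, and 947 clones met this.

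Which transport genes could be measured at all differed by class. Of the 55 genes, 25 were tested, 19 of them in 6 pairs, 4 in 5 pairs and 2 in 4 pairs. Both Na,K-ATPase beta subunits, all 4 genes of the vacuolar proton pump and both mitochondrial carriers were tested. So were 4 of 5 genes classed by symbol as sugar carriers, among them the vitamin carrier Slc5a6. Of the genes placed in the proximal tubule, 8 of 9 were tested. None of 4 potassium channels, 5 calcium pumps, 1 chloride channel and 1 metal carrier was tested. No ARF-sham array had a value for 9 genes: the potassium channels Kcnj11, Kcnk3 and Kcnn3, the aquaglyceroporin Aqp9, the bile acid carrier Slc10a1, the glutamate carriers Slc17a7 and Slc1a2, the organic cation carrier Slc22a3 and the organic anion carrier Slco1a4. A further 8 genes had values on 1 to 4 arrays but no complete pair, among them Slc2a2, the low-affinity glucose carrier of liver, islets and proximal tubule. The other 13 had 1 to 3 complete pairs. An empty cell does not show that a gene was silent.

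**Figure D1:**
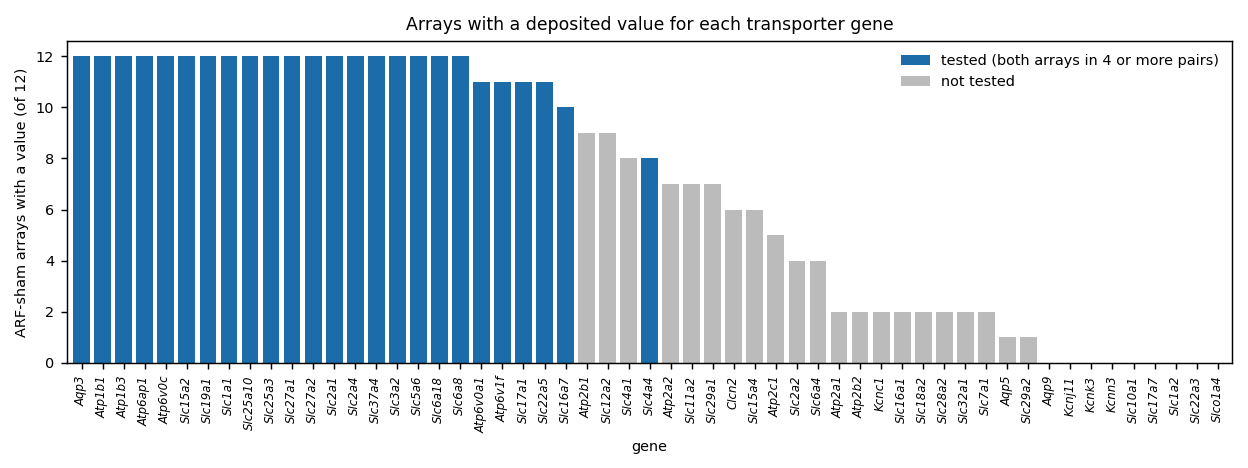
Number of the 12 ARF-sham arrays (vertical axis) with a deposited value for each of the 55 transport genes (horizontal axis), blue where the gene was tested and grey where it was not. The tested genes have values on 8 to 12 arrays, and 9 genes have none.

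No transport gene passed the threshold for ARF against sham (limma, Benjamini-Hochberg adjusted p under 0.05 over all 947 clones), where 0.95% of all clones did. The lowest adjusted p was 0.098, and 3 of the 25 genes had an unadjusted p under 0.05, against 14.7% of all clones. Those 3 were Slc27a2, Atp1b3 and Slc15a2, each with a mean below 0, where 7.81% of clones had both. Means below 0 were found for 22 of 25 genes, against 45.9% of all clones tested, and the median of the 25 means was -0.070 against 0.015 for all clones. Centred on array medians instead, 19 of 25 genes were below 0 against 40.9% of clones. The exceptions above 0 were Atp6v0a1, Slc27a1 and Aqp3, of which Aqp3 turned below 0 without pair F. Leaving out 1 pair also turned Atp6v0c, Atp6ap1, Slc19a1, Slc6a18, Slc3a2 or Slc37a4 above 0 in at least 1 case. No test was made of this share, since genes measured in the same rats are not independent.

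Slc27a2 is an acyl-CoA synthetase that takes up and activates very long-chain fatty acids, and in kidney it is a gene of the proximal tubule. Its log ratio was -0.27 in pair A, 0.029 in B, -0.22 in C, -0.38 in D, -0.36 in E and -0.64 in F. Pair F was lowest and pair B alone lay above 0. The mean was -0.31 ± 0.22 (SD, n = 6 pairs), with a 95% confidence interval of -0.49 to -0.13 and an adjusted p of 0.098 (limma). On 11 of 12 single arrays it lay below 0, with means of -0.35 with sham in Cy3 and -0.26 with sham in Cy5. The sham-sham arrays gave -0.18, -0.037, 0.021, -0.33, -0.35 and -0.22 for R1 to R6. Single values among them were as large as the ARF mean. Each is 1 array without the dyes exchanged, so rat and dye cannot be told apart. Fitting all 12 arrays with pair as a replicate block gave an adjusted p of 0.0147, adding a dye term 0.0275, and using sham-in-Cy3 arrays alone 0.043. Over all 17 alternatives the adjusted p (limma) ran from 0.0147 to 0.695, the highest in a fit that drops the pairing. Without 1 pair it ran from 0.086 to 0.47. Over all 17 the mean stayed between -0.38 and -0.24.

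Atp1b3 encodes the beta-3 subunit of the Na,K-ATPase, which carries the pump's catalytic subunit to the membrane. Its values were -0.020, -0.12, -0.45, -0.32, -0.28 and -0.11 for pairs A to F. All 6 pairs lay below 0, C lowest and A nearest to 0. The mean was -0.22 ± 0.16 (n = 6) with a 95% confidence interval of -0.37 to -0.070 and an adjusted p of 0.15 (limma). It passed when all 12 arrays were fitted with pair as a replicate block (adjusted p = 0.043), not with a dye term added, and its adjusted p ran from 0.043 to 0.695 over 17 alternatives. On the sham-sham arrays it lay between -0.10 and 0.012 except on R2, at -0.30.

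Atp1b1, the main beta subunit of the pump in kidney, showed the same sign in 5 pairs and the opposite in pair A. The values were 0.42 in A and -0.18, -0.43, -0.28, -0.32 and -0.23 in B to F. Pair A stood apart from the other pairs on both of its arrays, at 0.58 and 0.26. The mean was -0.17 ± 0.30 (n = 6, adjusted p = 0.48), and without pair A it was -0.29, with an adjusted p of 0.086 (limma; 0.086 to 0.92 over 17 alternatives). Pair A also lay above all 6 sham-sham values, which ran from -0.13 to 0.27. Atp1b1 was also the only transport gene with a dye effect past the threshold (0.14, adjusted p = 0.016), where 16.1% of clones passed. By orientation the mean was -0.025 for sham in Cy3 and -0.31 for sham in Cy5.

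**Figure D2:**
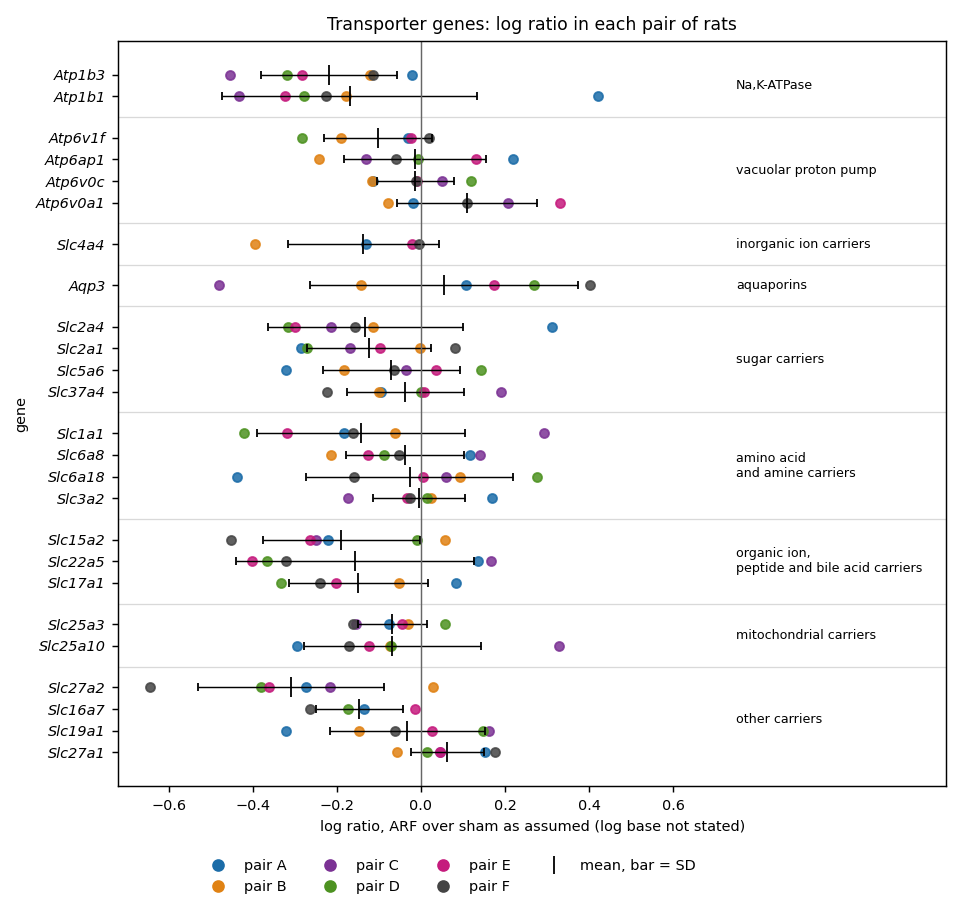
Log ratio of ARF over sham (horizontal axis, log base not stated) for the 25 tested transport genes (vertical axis, grouped by class), with 1 coloured point per pair of rats and a black tick and bar for the mean and SD over pairs. Atp1b3 lies below 0 in all 6 pairs, while in Atp1b1 and Slc2a4 pair A lies opposite to the other 5.

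The deposited data hold no sequence, so the promoters of the 3 genes with the lowest p are shown from RefSeq to place them in the genome and to let their upstream regions be compared. Promoters were found for 52 of the 55 genes, as the 250 bases before the annotated start in build GRCr8. They lie at chr3:134257851-134258100 (+ strand) for Slc27a2, chr8:105821152-105821401 (- strand) for Atp1b3 and chr11:77519315-77519564 (+ strand) for Slc15a2. Capitals mark matches, on either strand, to the TATA box TATAAA, the CCAAT box CCAAT, the GC box GGGCGG and the nuclear receptor hexamer AGGTCA, none of which overlap here.
Slc27a2: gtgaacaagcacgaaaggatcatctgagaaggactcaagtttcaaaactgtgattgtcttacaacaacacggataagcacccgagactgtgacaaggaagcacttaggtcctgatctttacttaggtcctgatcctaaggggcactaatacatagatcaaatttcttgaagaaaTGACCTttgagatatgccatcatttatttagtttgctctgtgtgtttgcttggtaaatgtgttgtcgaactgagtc
Atp1b3: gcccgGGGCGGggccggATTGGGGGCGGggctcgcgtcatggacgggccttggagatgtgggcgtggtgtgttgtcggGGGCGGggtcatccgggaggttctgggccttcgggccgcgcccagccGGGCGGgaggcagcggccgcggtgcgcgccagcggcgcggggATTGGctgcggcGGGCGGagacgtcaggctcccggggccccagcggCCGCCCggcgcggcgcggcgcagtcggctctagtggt
Slc15a2: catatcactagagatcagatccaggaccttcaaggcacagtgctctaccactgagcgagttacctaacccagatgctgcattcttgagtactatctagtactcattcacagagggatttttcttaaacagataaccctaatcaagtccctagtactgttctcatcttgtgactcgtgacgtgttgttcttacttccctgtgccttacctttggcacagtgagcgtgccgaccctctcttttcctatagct
The 3 promoters differ in composition. That of Atp1b3 has 79.6% G and C with 6 GC boxes and 2 CCAAT boxes, that of Slc27a2 40.4% with 1 nuclear receptor hexamer on the opposite strand, and that of Slc15a2 45.6% with none of these letters. Among all 33465 promoters of this length the hexamer was found in 14.1%, against 8 of 52 transport genes (15.4%). The GC box was found in 30.5% of all and 32 of 52 transport genes (61.5%), the CCAAT box in 11384 of 33465 and 18 of 52, and the TATA box in 12.9% and 3 of 52. A match is a description of the letters only, and no share over the promoters of the other array genes is given.

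The carriers of the proximal tubule all had means below 0. This held for 8 of 8 tested genes, with a median of -0.15, and for 8 of 8 when centred on array medians, but for 7 of 8 with only the arrays with sham in Cy3, where Slc6a18 was above 0, and for 6 of 7 without pair A (Slc6a18 above 0) or without pair F (Slc37a4 above 0). Of 15 tested genes with no segment assigned, 13 also had means below 0, against 45.9% of all clones tested. Within pairs the share of proximal tubule genes below 0 varied. In pair F 8 of 8 were below 0, in pairs A, D and E 6 of 8, 6 of 7 and 6 of 8, in pair B 4 of 7, and in pair C 2 of 6. On the sham-sham arrays 2 of 7 to 6 of 7 of the same genes lay below 0, so such splits also arose on arrays without an ARF rat.

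Among the organic ion and peptide carriers, Slc15a2, the high-affinity carrier that recovers di- and tripeptides in the late proximal tubule, had -0.22, 0.058, -0.25, -0.0086, -0.26 and -0.45 in pairs A to F. Pairs B and D lay near 0 and F lowest. The mean was -0.19 ± 0.19 (n = 6, adjusted p = 0.25), and on the sham-sham array R2 the gene reached -0.53. Slc22a5 (OCTN2), which takes up carnitine, had 0.14 in A, 0.17 in C, -0.37 in D, -0.40 in E and -0.32 in F. These values fall on both sides of 0, with 2 pairs above and 3 below, for a mean of -0.16 ± 0.28 (n = 5, adjusted p = 0.50). The mean was -0.24 without pair C, -0.10 without D, -0.096 without E and -0.10 for sham in Cy3 only. Slc17a1, a phosphate and urate carrier of the apical membrane, had 0.084, -0.053, -0.33, -0.20 and -0.24 in A, B, D, E and F. Pair A alone lay above 0, and the mean was -0.15 ± 0.16 (n = 5, adjusted p = 0.40), or -0.092 for sham in Cy3 only.

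Slc1a1, the glutamate and aspartate carrier of the proximal brush border, had -0.18, -0.062, 0.29, -0.42, -0.32 and -0.16 in pairs A to F. Pair C stood opposite to the other 5, and the mean was -0.14 ± 0.25 (n = 6, adjusted p = 0.49). Without pair C it was -0.23 (adjusted p = 0.11, limma), without pair D -0.086 (adjusted p = 0.73) and for sham in Cy3 only -0.084, and the adjusted p ran from 0.11 to 0.92 over 17 alternatives. Its sham-sham values were the narrowest of all 25 genes, between 0.0013 and 0.059 on 6 arrays. It was the only transport gene, 1 of 25, whose ARF mean exceeded in size every sham-sham value of its own, against 6.75% of clones. Slc6a18, a neutral amino acid carrier of the same membrane, ranged from -0.44 in pair A to 0.28 in pair D, with a mean of -0.027 ± 0.25 (n = 6).

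**Figure D3:**
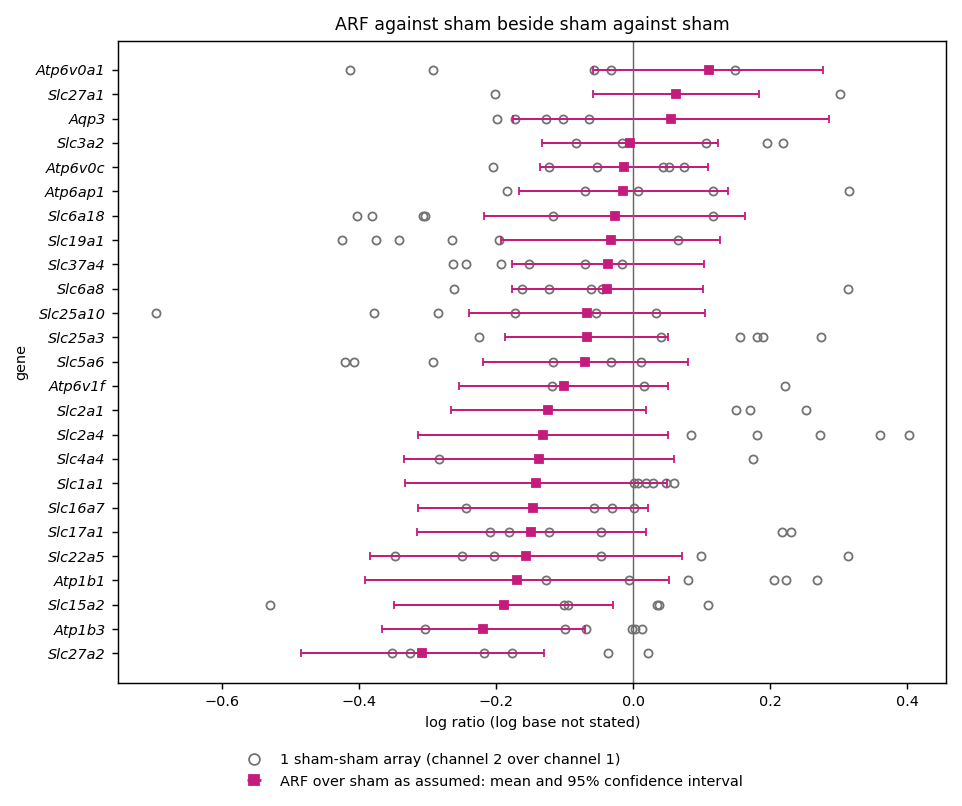
Log ratio (horizontal axis, log base not stated) of the 25 tested transport genes (vertical axis, ordered by mean): the ARF over sham mean with its 95% confidence interval in pink, and each sham-sham array as an open circle. The pink mean of Slc1a1, at -0.14, lies outside its 6 circles in size, while that of Slc27a2 lies among its own.

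Slc4a4, the sodium bicarbonate cotransporter of the proximal basolateral membrane, had -0.13, -0.39, -0.021 and -0.0050 in pairs A, B, E and F. Every measured pair was below 0, yet the 2 dye orientations disagreed in sign in A, E and F, for example -0.46 and 0.19 in pair A. The mean was -0.14 ± 0.18 (n = 4, adjusted p = 0.50), by orientation -0.24 for sham in Cy3 and -0.038 for sham in Cy5. Slc16a7 (MCT2), a monocarboxylate carrier for lactate and pyruvate, had -0.13 in A, -0.17 in D, -0.015 in E and -0.26 in F, again below 0 in each measured pair. Here too the orientations disagreed in sign in 3 of 4 pairs, with -0.39 and 0.12 in A, -0.35 and 0.0031 in D, and 0.0019 and -0.031 in E. Its mean was -0.15 ± 0.10 (n = 4, adjusted p = 0.40), by orientation -0.24 for sham in Cy3 and -0.054 for sham in Cy5, and -0.23 (n = 6) with pairs measured on 1 array kept. With Atp1b3 these were the only 3 of 25 genes with 1 sign in every measured pair, against 13.4% of clones. All 3 were below 0, where 7.18% of clones had every pair below 0. Slc4a4 and Slc16a7 also lie at the edge of the minimum of 4 pairs. Just outside it were Atp2b1, a plasma membrane calcium pump, with -0.010, 0.37 and -0.093 in pairs A, B and E, and Slc12a2 (NKCC1), the basolateral salt cotransporter, with 0.40, 0.24 and 0.29 in A, E and F.

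Both facilitative glucose carriers tested had means below 0 and did not pass. Slc2a1 (GLUT1) had -0.29, -0.0014, -0.17, -0.27, -0.097 and 0.080 in pairs A to F, with only F above 0, and a mean of -0.12 ± 0.15 (n = 6, adjusted p = 0.41), or -0.076 (n = 4) where both duplicate spots were required. Slc2a4 (GLUT4), the insulin-responsive carrier, had 0.31, -0.11, -0.22, -0.32, -0.30 and -0.16. As in Atp1b1, pair A alone lay above 0. The mean was -0.13 ± 0.23 (n = 6, adjusted p = 0.49), for sham in Cy3 only -0.075, and without pair A it was -0.22 with an adjusted p of 0.13 (limma; 0.13 to 0.93 over 17 alternatives). Slc37a4, which brings glucose 6-phosphate into the endoplasmic reticulum for glucose release, had a mean of -0.037 ± 0.14 (n = 6). Slc5a6, a vitamin carrier of the sodium-glucose carrier family, had -0.070 ± 0.16 (n = 6).

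The vacuolar proton pump, which acidifies endosomes and, in intercalated cells, the urine, had means on both sides of 0, 3 below and 1 above. Atp6v0a1, a membrane subunit, had -0.019, -0.079, 0.21, 0.33 and 0.11 in pairs A, B, C, E and F. It lay above 0 in 3 of 5 pairs, and its mean of 0.11 ± 0.17 (n = 5, adjusted p = 0.51) was the highest of the 25 genes. Without pair E it was 0.055 (n = 4), and by orientation 0.034 for sham in Cy3 and 0.17 for sham in Cy5. Atp6v1f, of the cytosolic part, had -0.10 ± 0.13 (n = 5). The proteolipid Atp6v0c and the accessory subunit Atp6ap1 had means of -0.014 and -0.015, and both turned above 0 when centred on array medians, as did Slc3a2.

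Other tested carriers lay close to 0. The mitochondrial phosphate carrier Slc25a3 had -0.068 ± 0.082 (n = 6), with 5 of 6 pairs below 0. The mitochondrial dicarboxylate carrier Slc25a10 had -0.068 ± 0.21 and was above 0 in pair C alone. Slc27a1, the fatty acid carrier of muscle and fat, had 0.063 ± 0.087 and was above 0 in 5 of 6 pairs, opposite in sign to its relative Slc27a2; the difference between them was not tested. Means of -0.038, -0.033 and -0.0045 were found for the creatine carrier Slc6a8, the folate carrier Slc19a1 and Slc3a2, the heavy chain of several amino acid exchangers. Aqp3, the basolateral water channel of the collecting duct, was the most variable gene between pairs, and is named for that after its values were seen. It had 0.11, -0.14, -0.48, 0.27, 0.17 and 0.40 in pairs A to F, a mean of 0.055 ± 0.32 that turned below 0 without pair F.

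The 2 dye orientations gave means of the same sign for 18 of 25 genes. With sham in Cy3 17 of these genes were below 0, with sham in Cy5 22, and 16 were below 0 in both. When each orientation was fitted alone, the genes tested differed. There 22 of 31 genes and 55.8% of clones were below 0 with sham in Cy3, and 22 of 28 genes and 50.4% of clones with sham in Cy5. The dye effect was above 0 for 17 genes, against 57.4% of all clones, and its median over the genes was 0.032, against 0.020 over all clones.

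**Figure D4:**
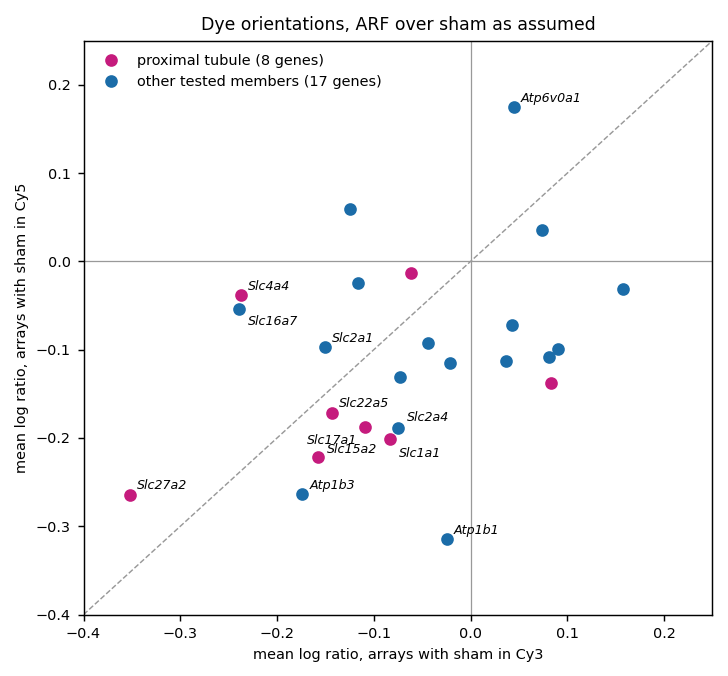
Mean log ratio of each tested transport gene by dye orientation, sham in Cy3 on the horizontal axis and sham in Cy5 on the vertical axis, over the pairs measured on both arrays, with proximal tubule genes in pink, the others in blue and the dashed line where both are equal. Slc27a2, Atp1b3 and Slc15a2 lie below 0 on both axes, and Atp1b1 is far below the line.

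By pair, transport genes were below 0 in 16 of 25 (A), 19 of 23 (B), 11 of 21 (C), 15 of 23 (D), 17 of 25 (E) and 20 of 25 (F), and all tested clones in 45.6% to 57.5%. Their median was below 0 in every pair, from -0.034 in E to -0.11 in F. The median of all tested clones was also below 0 in A, B and C, at -0.036, -0.024 and -0.022, beside -0.075, -0.10 and -0.035 for the transport genes. In D, E and F the clone median was above 0, at 0.0098, 0.022 and 0.014. Only in pair C was the share of these genes below 0, 52.4%, under that of clones, 54.1%. On the sham-sham arrays the same genes were below 0 in 6 of 15 on R3 up to 18 of 25 on R2, with medians from -0.17 on R2 to 0.038 on R3. Of all tested clones, 46.0% were below 0 on R3 and 62.5% on R2, where their median was -0.085. On R1 and R4 15 of 23 and 14 of 20 transport genes were below 0, against 52.5% and 52.9% of clones. On R5 and R6 10 of 21 and 13 of 25 were, against 46.8% and 48.7%. Markers of other cells are given beside this, from lists drawn up with earlier results of these data known. For comparison, 435 of 947 tested clones (45.9%) had means below 0 and 512 had means above 0. Of the fibroblast and matrix markers 7 of 9 were tested and 7 of 7 were above 0, with a median of 0.31 that ran from 0.69 in pair A to -0.050 in pair D. Of the macrophage and antigen presentation markers 2 of 5 were tested, both above 0. Among proximal tubule markers that are not transport genes of this set, 9 of 10 were tested, 5 of them below 0, with a median of -0.055. Of the loop and distal tubule markers, which include Slc12a1 and Slc12a3, 6 of 6 were tested, 4 below 0, with a median of -0.27. Of the collecting duct markers 3 of 4 were tested, 2 of them below 0, and the fat marker Fabp4 had a mean of -0.068. The 1 endothelial and 4 erythrocyte markers on the array could not be tested. The part of these cell types in the transport gene values was not tested.

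Other genes of epithelial transport, from a list that includes regulators, binding partners and the 3 excluded transporters, were read in the same fit. Of 21 on the array 16 were tested, 12 with means below 0 and 4 above, where 45.9% of all clones were below 0. None passed the threshold, where 0.95% of clones did, and 6 had an unadjusted p under 0.05, against 14.7% of clones. The list was drawn up with earlier results of these data known, so these shares are a description and not a test of the list. Below 0 were Slc12a1, the salt cotransporter of the thick limb (-0.31 ± 0.22, n = 6), and Scnn1a, a subunit of the epithelial sodium channel (-0.22 ± 0.10, n = 5). The water channel Aqp1 had -0.20 ± 0.14 (n = 4). Sgk1, the aldosterone-induced kinase that raises sodium channel activity, had 0.42 ± 0.35 (n = 5). The Na,K-ATPase regulators of the Fxyd family lay on both sides of 0, with -0.066 ± 0.12 for Fxyd2 and 0.16 ± 0.31 for Fxyd4 (each n = 6).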

How the data were processed

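Values were deposited by the authors as normalized log ratios per spot, per the labels, which name ImaGene 4.1 and an earlier method for spot quality and weak signals; log base, direction and array normalization are not given in the sources used here. Every array had a mean of 0, with medians between -0.042 and 0.029, so scale and direction stay unknown and centring is on the mean. Empty cells made up 57.1%.

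The 4608 rows are 2304 clones spotted 1152 rows apart, and the 2 spots were averaged. Both dye orientations correlated above 0 in each pair (r from 0.196 to 0.58), so both were taken to run the same way. Symbols come from the platform annotation, updated through RefSeq (GRCr8; 55 of 55 transport genes matched). On the sham-sham arrays adjacent blocks of 288 rows were exchanged, a step chosen after seeing the values: the correlation of where values are present rose from -0.011 to 0.488.

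Pair means were tested against 0 with limma 3.58.1 (R 4.3.3), requiring both arrays of a pair and a minimum of 4 pairs, with Benjamini-Hochberg adjustment over all 947. Each ratio holds both rats of a pair named in the labels, so the test is paired. The dye effect, the difference between a pair's arrays divided by 2, was tested likewise. The procedure was tested on simulated data. Members, class and segment lists, marker lists and the list of other epithelial transport genes were chosen with earlier results of these data known. Values in every pair are given for genes with an unadjusted p under 0.05, with 1 sign in every pair or among the 12 largest mean sizes. Nothing says how the rats were housed or handled in batches.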

Additional observations from a re-analysis of the deposited data

Results flagged for a closer look

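Of 46 sets of 4 to 6 values (pair values or sham-sham values of a tested gene), 5 had a value far from the rest, where chance gives about 5% of sets. Atp1b1 was at 0.42 in pair A, against -0.43 to -0.18 in the others. Slc2a4 was at 0.31 in pair A, against -0.32 to -0.11. Slc25a10 was at 0.33 in pair C, against -0.29 to -0.071. On the sham-sham array R2, Atp1b3 was at -0.30, against -0.10 to 0.012, and Slc15a2 at -0.53, against -0.10 to 0.11.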

How the results depend on the processing

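The count of 0 transport genes past the threshold for ARF against sham was 2 with the 12 arrays fitted and the pair as a replicate block (Slc27a2 and Atp1b3), 1 with a dye term added to that block (Slc27a2) and 1 with only the arrays with sham in Cy3 (Slc27a2). Arrays of 1 pair share their rats, and the block fits gave correlations of 0.288 and 0.506 between them. The count was 0 in the other planned fits, including no replicate block on 12 rat levels, where 2 of 598 clones passed; leaving out each pair gave 0 to 0. In those fits 2 to 5 genes had an unadjusted p under 0.05. The count over all clones moved more: 9 became 42 and 29 in the block fits, 28 and 10 by orientation, 16 centred on medians, 17 with both spots required, 6 with all 6 pairs, 4 with at least 3, 5 with pairs measured on 1 array kept, 0 with trend and robust moderation (where 3 of 25 transport genes had an unadjusted p under 0.05), and 0 to 19 without 1 pair. The 1 gene with a dye effect became 2 among clones with all 6 pairs (Slc3a2 added) and 1 to 3 without 1 pair. Means below 0 were least frequent with sham-in-Cy3 arrays only (22 of 31 genes, against 55.8% of clones). The 12 genes given in full kept their sign in all 187 refits. Several refits leave a mean as it was, such as -0.31 for Slc27a2 in both block fits. The 12 genes were also picked partly by size or sign, so this outcome was in part fixed beforehand. The fit on 12 rat levels drops the pairing, and it gave the highest adjusted p quoted for Slc27a2, Atp1b3, Atp1b1, Slc1a1 and Slc2a4. Fewer than 4 pairs measured left 30 genes untested, and the 95% intervals of the tested ones reached 0.12 to 0.23 on either side of the mean.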

Other observations

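Between sham rats, some transport genes leaned to 1 sign. Slc37a4 was below 0 on all 6 sham-sham arrays, from -0.26 to -0.016, and Slc2a4 above 0 on all 5 with a value, from 0.084 to 0.40. The folate carrier Slc19a1 was below 0 on 5 of 6, down to -0.42 on R2. Aqp3 was below 0 on all 5 with a value, from -0.20 to -0.065. Slc1a1 was above 0 on all 6, from 0.0013 to 0.059, and Slc2a1 on all 3 with a value, from 0.15 to 0.25. The genes named here were picked after their values were seen. The share of all clones with 1 sign on every sham-sham array was not counted. These arrays were not repeated with the dyes exchanged and share rats, so rat and dye cannot be told apart.

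Slc12a2, seen after its values to lie highest among genes with 3 pairs (0.31 ± 0.081, n = 3), had 0.083 ± 0.26 when the pairs measured on 1 array were kept (n = 6, adjusted p = 0.70, limma). The single arrays of pairs B, C and D gave -0.17, -0.22 and -0.033. The monocarboxylate carrier Slc16a1 and the calcium pump Atp2b2 had values on 5 of 6 sham-sham arrays and on 2 of 12 ARF-sham arrays each. Which rows belong to a gene on the sham-sham arrays rests on the inferred exchange of row blocks. Every ARF-sham array also holds a sham rat, and why the counts differ was not tested.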
